A study of Mus musculus with 36 samples.

Results

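A set of 9 genes linked to cellular senescence was followed in mouse bone: the cell cycle inhibitors Cdkn2a and Cdkn2b, which lie side by side in one locus, and the secreted factors Il1b, Tnf, Il6, Ccl2, Cxcl1, Cxcl12 and Gdf15. They were taken by symbol, and each symbol had 1 row, so that 9 of the 56246 genes of the expression table are described here. RNA was measured in tibiae of 6-month mice, with epiphyses and marrow removed, in 3 groups of 12 (6 males and 6 females each). Wild-type mice had the treatment label NT. The other groups had the genotype label LMNAG608G/G608G, here LMNA G/G, a double-copy human LMNA transgene on a bacterial artificial chromosome that also carries human RAB25 and makes progerin, the truncated lamin A of Hutchinson-Gilford progeria. These mice were injected behind the eye at P14, 14 days after birth, with saline or with an adenine base editor (ABE), an enzyme that changes A to G in DNA, delivered by a pair of AAV9 vectors. The transgenic line had been bred into C57BL/6J. The groups are described as littermates in the study, but the labels give no litters and wild-type mice carry a separate run of mouse numbers, so a batch and the genotype cannot be told apart.

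Senescent cells stop dividing, stay alive and release a mixture of cytokines, chemokines and proteases. Cdkn2a encodes 2 unrelated proteins from separate first exons: p16Ink4a, which blocks the kinases Cdk4 and Cdk6 and so keeps Rb active, and p19Arf, which holds back Mdm2 and so spares p53. Cdkn2b encodes p15Ink4b, a relative of p16Ink4a, and Polycomb proteins keep the locus silent in young tissue. Of the secreted genes, Il1b and Tnf are early inflammatory cytokines, Il6 a later one, Ccl2 and Cxcl1 draw monocytes and neutrophils, Cxcl12 retains blood stem cells in marrow, and Gdf15 is a hormone of cellular stress. In bone, Il1b, Tnf and Il6 are known to promote osteoclasts, the cells that resorb bone.

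Levels are given as scaled TPM, the deposited TPM values, which express reads per gene length as a share of each library, divided by a size factor for each library. Libraries held 48064068 to 116206662 reads on genes, and the low genes below still rest on few of them. Groups were compared with limma on log2(scaled TPM + 0.1), with sex as a covariate, over 22546 genes (mean scaled TPM of 0.1 or more), and calls needed an adjusted p (Benjamini-Hochberg over all genes) under 0.05. The added 0.1 shrinks log2 fold changes of low genes, so ratios of group means are given too. Of the 9 genes, 7 passed the filter and were above 0.1 on average in every group. Il6 and Cxcl1 did not pass.

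Saline-treated LMNA G/G bone had more Cdkn2a, Cdkn2b and Il1b and less Tnf than wild-type bone, while Ccl2, Cxcl12 and Gdf15 did not pass the threshold. That is 3 genes higher and 1 lower of 7, in a comparison that called 25.3% of all genes higher, 24.7% lower and 50% in either direction, so that the number of calls by itself says little. The median log2 fold change of the 7 genes was 0.38, and that of all genes 0.01. ABE-treated bone differed from wild-type in the same counts, 3 higher and 1 lower of 7, where 32.9% of all genes were higher, 34% lower and 66.8% called in either direction. These comparisons share the wild-type libraries. Between ABE-treated and saline-treated LMNA G/G bone, Il1b, Tnf, Cxcl12 and Gdf15 were lower with ABE and 0 of 7 genes were higher. Here 21.6% of all genes were called higher, 21.6% lower and 43.3% in either direction.

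**Figure D1:**
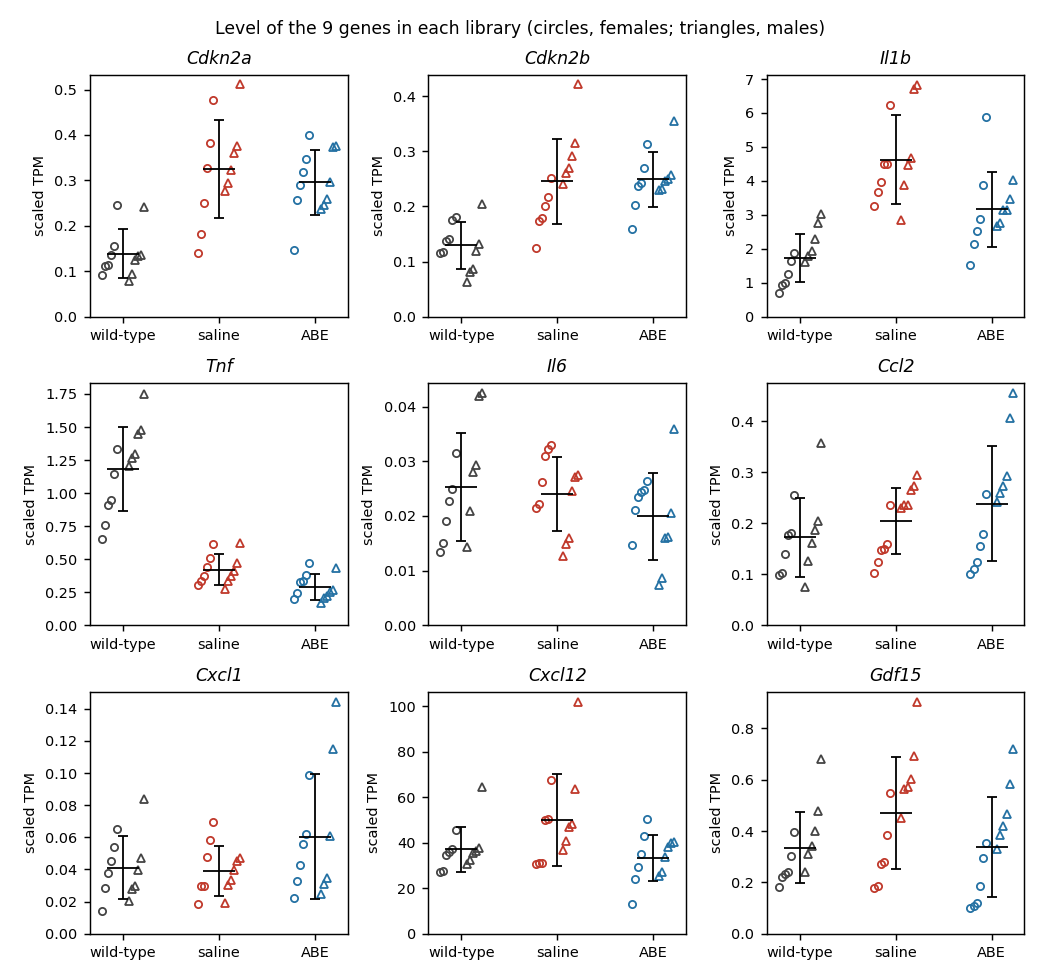
Scaled TPM (vertical axis, from 0, a separate scale for each gene) in each of the 36 libraries by group, with circles for females, triangles for males, and black bars for the mean and SD of 12 libraries. Tnf in wild-type mice lies above every saline-treated and ABE-treated mouse, Cdkn2a and Cdkn2b are raised to like levels in both LMNA G/G groups, and Il6 stays below 0.05.

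The Cdkn2 locus comes first. Cdkn2a (ENSMUSG00000044303.6) spans chr4:89274471-89294653 and Cdkn2b (ENSMUSG00000073802.5) chr4:89306299-89311039 of GRCm38, both on the minus strand, with 11645 bp between them. Cdkn2a has 2 annotated transcripts, starting at 89282192 (the p16Ink4a exon) and 89294653 (the p19Arf exon). The table holds 1 value per gene, so p16Ink4a and p19Arf cannot be told apart. The 150 bases before the RefSeq starts of these transcripts (GRCm38.p6, minus strand, 5′ to 3′) are shown because both genes rose together, and capitals mark the GC box (GGGCGG on either strand). Only the p19Arf start has it here, at 2 places, and 28.6% of 32851 RefSeq start windows of this length hold at least 1. As spelled here, neither a TATA box TATAAA (7.57% of windows), an NF-kappaB motif GGANTTTCC (0.688%) nor an E2F motif TTTNGCGC (0.718%), on either strand, occurs in the 3 windows. Other spellings of these motifs were not searched, so sites that differ from these letters may be present.
Cdkn2a, p19Arf start, chr4:89294620-89294769: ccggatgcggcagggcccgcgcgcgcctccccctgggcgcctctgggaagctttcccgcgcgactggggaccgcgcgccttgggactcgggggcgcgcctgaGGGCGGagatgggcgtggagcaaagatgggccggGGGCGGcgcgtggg
Cdkn2a, p16Ink4a start, chr4:89282193-89282342: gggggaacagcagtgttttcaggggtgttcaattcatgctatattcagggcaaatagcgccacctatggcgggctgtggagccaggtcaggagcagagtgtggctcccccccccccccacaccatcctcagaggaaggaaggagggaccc
Cdkn2b, chr4:89311033-89311182: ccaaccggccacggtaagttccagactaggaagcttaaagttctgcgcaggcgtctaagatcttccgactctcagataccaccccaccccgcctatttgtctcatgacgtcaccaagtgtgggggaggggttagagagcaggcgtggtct

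Cdkn2a was at 0.0776 at the lowest, 0.129 at the median and 0.245 at the highest scaled TPM in wild-type, on 23 to 60 reads per library. In saline-treated mice it ranged from 0.1403 to 0.511 (median 0.325, 34 to 156 reads), and in ABE-treated mice from 0.147 to 0.400 (median 0.294, 26 to 103 reads). The groups overlapped, but 10 of 12 saline-treated and 10 of 12 ABE-treated mice lay above the highest wild-type mouse, 611F. Mean Cdkn2a was 0.138 ± 0.0540 (SD, n = 12) in wild-type mice, 0.325 ± 0.108 with saline and 0.296 ± 0.0723 with ABE. Saline-treated bone thus had 2.35 times the wild-type mean of Cdkn2a (log2 fold change 0.82, SE 0.13, adjusted p = 5.6e-06), and ABE-treated bone 2.14 times (0.74, SE 0.13, adjusted p = 1.1e-05).

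Cdkn2b moved alike. It ranged from 0.0631 to 0.204 scaled TPM in wild-type (median 0.126), from 0.126 to 0.422 in saline-treated (median 0.247) and from 0.160 to 0.356 in ABE-treated mice (median 0.244). Above the highest wild-type mouse were 8 of 12 saline-treated and 10 of 12 ABE-treated mice. The means were 0.129 ± 0.0422, 0.246 ± 0.0773 and 0.250 ± 0.0497 (SD, n = 12). Against wild-type the mean was 1.90 times as high in saline-treated bone (log2 fold change 0.58, SE 0.11, adjusted p = 3.6e-05) and 1.93 times in ABE-treated bone (0.62, SE 0.11, adjusted p = 7.1e-06). With limma-voom on reads, which has no pseudocount of this size, the folds against wild-type were larger than on the log2 scale: 2.35 and 2.22 for Cdkn2a and 1.94 and 2.02 for Cdkn2b.

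Between ABE-treated and saline-treated mice neither inhibitor passed the threshold. The log2 fold change was -0.08 for Cdkn2a, with a 95% interval from -0.35 to 0.19 (adjusted p = 0.65), and 0.03 for Cdkn2b, from -0.18 to 0.25 (adjusted p = 0.82). On the scale of scaled TPM + 0.1, the intervals reach down to 0.784 of the saline-treated value for Cdkn2a and 0.880 for Cdkn2b.

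These tibiae were bulk tissue, where fewer cells of a type and less RNA per cell cannot be told apart, and markers of bone cells moved with Cdkn2a and Cdkn2b. Osteocyte markers (Sost, Dmp1, Mepe and 7 others) summed to between 19.7 and 61.0 scaled TPM in wild-type, between 190 and 526 in saline-treated and between 196 and 379 in ABE-treated mice, with no overlap with wild-type. Of the 10 markers, 9 were higher with saline and 10 with ABE than in wild-type. Sost, a Wnt inhibitor made by osteocytes, was at 8.25 ± 4.94, 123 ± 44.6 and 113 ± 22.8 scaled TPM (SD, n = 12), and Fgf23, the lowest of the list, at 0.128 ± 0.0855, 0.230 ± 0.119 and 0.297 ± 0.184. With the mean of this list as a covariate, the log2 fold changes against wild-type became -0.06 (saline-treated) and -0.09 (ABE-treated) for Cdkn2a and -0.10 and -0.03 for Cdkn2b (adjusted p from 0.85 to 0.95); with groups that do not overlap in the covariate, list and group cannot be told apart in this fit. Osteoclast markers (Ctsk, Acp5, Mmp9 and 6 others) summed to 121 to 244 in wild-type, 144 to 610 in saline-treated and 124 to 488 in ABE-treated mice, and 9 and 7 of 9 were higher than in wild-type. With that list as a covariate, the rise of Cdkn2a in saline-treated bone was no longer called (log2 fold change 0.21, adjusted p = 0.22), while that in ABE-treated bone (0.40, adjusted p = 0.001) and both rises of Cdkn2b (0.49 and 0.57) were.

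Within groups and sexes the inhibitors followed different marker lists. After the mean of each group and sex was subtracted, Cdkn2a had its highest correlation over 36 libraries with the osteoclast list (Pearson's r = 0.75), and Cdkn2b with the skeletal muscle list (r = 0.70). The correlation of Cdkn2a with Cdkn2b was 0.42. The single genes most like Cdkn2a were Cd63, a membrane protein of late endosomes (r = 0.79), Itgav, an integrin subunit (0.78), and Macroh2a2, a histone variant of silent chromatin (0.78). For Cdkn2b they were Pdlim4 (0.83), Car3, a carbonic anhydrase abundant in muscle (0.81), and Aebp1, a protein of the extracellular matrix (0.81). The 99th percentile over the genes compared was 0.65 for Cdkn2a and 0.70 for Cdkn2b, and all these values share library, depth and cell content. Adding the muscle list to the fit, Cdkn2b remained called in saline-treated mice (log2 fold change 0.35), but its difference between ABE-treated and wild-type mice was 0.15 (adjusted p = 0.26), and with TPM as deposited it was 0.29 (adjusted p = 0.062).

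**Figure D2:**
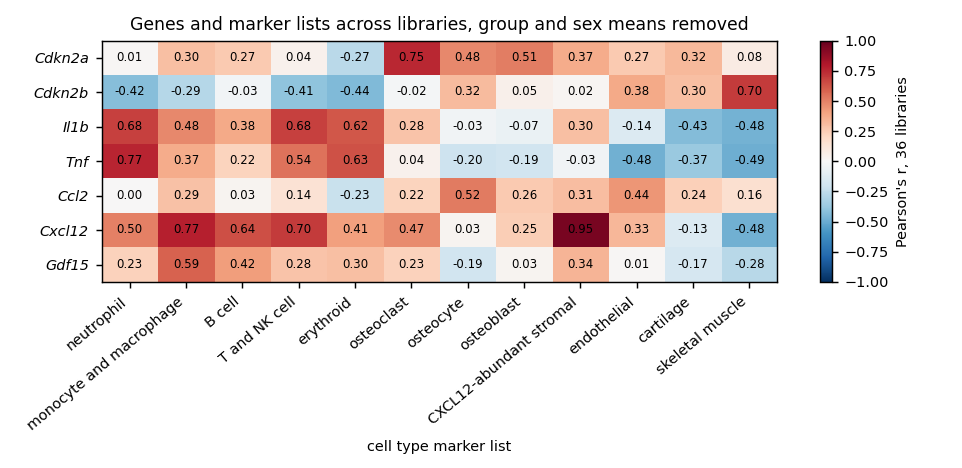
Pearson's r between 7 of the genes (rows) and the mean log2 level of 12 cell type marker lists (columns) over 36 libraries after the means of group and sex were removed, coloured from -1 (blue) to 1 (red). The strongest pairs are Cxcl12 with the CXCL12-abundant stromal list (0.95), Tnf with neutrophils (0.77), Cxcl12 with monocytes and macrophages (0.77), Cdkn2a with osteoclasts (0.75) and Cdkn2b with skeletal muscle (0.70).

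Of the other transcripts near the locus, some rose as well. Mtap, a methionine salvage enzyme encoded next to Cdkn2a at chr4:89137122-89181081, was at 0.829, 1.02 and 1.02 scaled TPM on average in wild-type, saline and ABE mice (log2 fold change 0.27, adjusted p = 5.3e-05 in saline-treated and 0.26, adjusted p = 4.5e-05 in ABE-treated against wild-type). The noncoding Gm12610, beyond Cdkn2b at chr4:89421848-89463487, was at 0.0957, 0.193 and 0.157 (0.57, adjusted p = 0.0025 and 0.37, adjusted p = 0.034). Both were chosen after their values were seen, and the wild-type mean of Gm12610 is under the filter of 0.1. Of the Polycomb repressors of the locus, 2 of 10 were higher and 2 lower in saline-treated than in wild-type bone. Beside this and the other list counts stand the shares of all genes called. These were 25.3% higher and 24.7% lower with saline against wild-type. With ABE they were 32.9% and 34% against wild-type, and 21.6% and 21.6% against saline. Bmi1, the best known repressor of Cdkn2a, was itself higher in saline-treated (1.51 ± 0.197 to 2.25 ± 0.298 scaled TPM; log2 fold change 0.55, adjusted p = 8.9e-07) and ABE-treated mice (2.69 ± 0.493; 0.79, adjusted p = 6.4e-10). Rnf2, which places the ubiquitin mark on histone H2A, rose in saline-treated bone (0.29, adjusted p = 7e-06) and Kdm2b fell (-0.18, adjusted p = 8.4e-05). In ABE-treated against wild-type bone 3 of 10 were higher and 5 lower, among them Ezh2, the methylase of the mark H3K27me3, at -0.77 (adjusted p = 6e-05), and Ring1 at 0.35 (adjusted p = 6.9e-05). Between ABE-treated and saline-treated mice Ring1 rose (0.29, adjusted p = 0.0023), Suz12 (-0.40, adjusted p = 0.0046) and Ezh2 (-0.47, adjusted p = 0.015) fell, and 2 of 10 were higher and 3 lower.

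The partners of p16Ink4a and p15Ink4b did not move as one group. In saline-treated against wild-type bone, 3 of 16 genes of the INK4 and RB pathway rose and 4 fell (median log2 fold change -0.10). These counts are near the shares of all genes, 25.3% and 24.7%. Cdkn1a, which encodes the inhibitor p21 and is a target of p53, had the lowest adjusted p: it went from 1.74 ± 0.495 scaled TPM in wild-type to 6.96 ± 1.56 in saline-treated (log2 fold change 1.95, adjusted p = 4.8e-13) and 8.16 ± 1.66 in ABE-treated mice (2.19, adjusted p = 2.8e-14). Ccnd1, the cyclin that activates Cdk4, was also higher in saline-treated bone (0.61, adjusted p = 3.4e-05), and the cell cycle activator E2f3 was lower (-0.33, adjusted p = 9.8e-06). In ABE-treated against wild-type bone 4 of 16 rose and 11 fell, including E2f3 (-0.47, adjusted p = 1.6e-08) and E2f1 (-1.17, adjusted p = 2.7e-07), which also fell with saline (-0.50, adjusted p = 0.012). With ABE against saline 2 of 16 rose and 11 fell, among them Cdk4 (-0.31, adjusted p = 0.0013), E2f2 (-0.99, adjusted p = 0.0013) and Cdkn2d, another INK4 inhibitor (-0.65, adjusted p = 0.0013).

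On the p53 side, which p19Arf touches, 5 of 10 genes rose and 1 fell in saline-treated bone, and 5 rose and 3 fell in ABE-treated bone against wild-type. Of all genes, 25.3% rose and 24.7% fell with saline, and 32.9% rose and 34% fell with ABE. The p53 targets Phlda3 and Ccng1 rose in saline-treated mice (log2 fold change 1.07, adjusted p = 0.0013 and 0.98, adjusted p = 0.0018) and Mdm4, an inhibitor of p53, fell (-0.27, adjusted p = 9.5e-05). Phlda3 stood at 5.84 ± 2.55, 12.5 ± 5.49 and 26.2 ± 10.6 scaled TPM (SD, n = 12) in wild-type, saline and ABE mice. It was therefore further from wild-type with ABE (2.15, adjusted p = 3.2e-08), as was Ccng1 (1.86, adjusted p = 1.5e-07), and Zmat3, another p53 target, rose against wild-type with saline (0.34, adjusted p = 0.0023) and with ABE (0.57, adjusted p = 1.9e-06). Trp53inp1, also of this list, was not called with saline (0.08, adjusted p = 0.51) or ABE (-0.04, adjusted p = 0.70) against wild-type. Trp53, which encodes p53, was lower with ABE than in wild-type (-0.27, adjusted p = 0.0062) and than with saline (-0.30, adjusted p = 0.0061). Between ABE-treated and saline-treated mice 4 of 10 rose and 3 fell, with Phlda3 at 1.09 (adjusted p = 0.0024), Npm1, which binds p19Arf in the nucleolus, at -0.35 (adjusted p = 0.0031), and Usp7 at -0.34 (adjusted p = 0.0037).

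In saline-treated against wild-type bone 25.3% of all genes rose and 24.7% fell. Among the nuclear and lysosomal markers used for senescence 3 of 10 rose, near that share, and 0 fell. These were Lamp1, a protein of the lysosomal membrane (log2 fold change 0.46, adjusted p = 6.8e-06), Glb1, the lysosomal beta-galactosidase behind the common senescence stain (0.65, adjusted p = 0.0011), and Hmgb1 (0.30, adjusted p = 0.0023). Lmnb1, a lamin that is lost in senescent cells, was at 14.99 ± 2.90, 14.6 ± 3.19 and 9.42 ± 3.54 scaled TPM in wild-type, saline and ABE mice. It was lower with ABE than in wild-type (-0.74, adjusted p = 0.00048) and than with saline (-0.70, adjusted p = 0.0032). In ABE-treated against wild-type bone 1 of 10 rose, Lamp1 (0.51, adjusted p = 6.2e-07), and 6 fell, including Uhrf1, a factor of dividing cells (-1.10, adjusted p = 4.5e-05). With ABE against saline 0 rose and 8 fell, among them Hmgb1 (-0.32, adjusted p = 0.0024) and Hmgb2 (-0.80, adjusted p = 0.0039). Erythroid markers, whose cells divide in marrow, also fell with ABE: 7 of 8 against saline, with Slc4a1, a red cell membrane protein, at 110 ± 30.6 scaled TPM with saline and 55.2 ± 30.5 with ABE, and Hba-a1, the lowest of the list, at 0.427 ± 0.219 and 0.600 ± 1.08. Their part in these results was not tested.

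**Figure D3:**
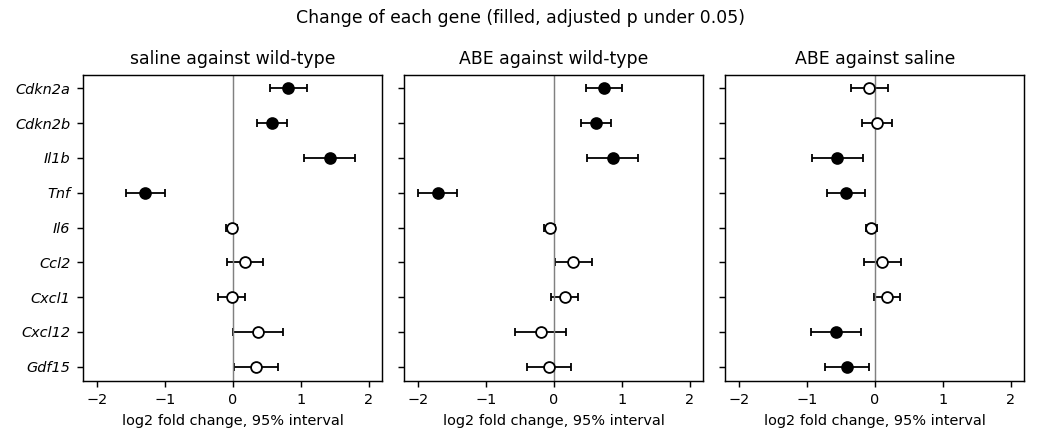
Log2 fold change (horizontal axis) of each of the 9 genes with its 95% interval from limma in the comparisons named above each panel; filled circles passed an adjusted p of 0.05, and Il6 and Cxcl1 come from the fit without a filter. Il1b lies at 1.42 and Tnf at -1.28 in saline-treated against wild-type mice, while the intervals of Cdkn2a and Cdkn2b span 0 between ABE-treated and saline-treated mice.

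Il1b and Tnf moved in opposite directions against wild-type. Il1b (ENSMUSG00000027398.13, chr2:129364570-129371139) ranged from 0.702 to 3.03 scaled TPM in wild-type (median 1.72), from 2.86 to 6.83 in saline-treated (median 4.48) and from 1.51 to 5.88 in ABE-treated mice (median 3.01). Of the saline-treated mice 11 of 12 lay above every wild-type mouse, and of the ABE-treated mice 6 of 12. The means of Il1b were 1.74 ± 0.714, 4.63 ± 1.304 and 3.17 ± 1.10 (SD, n = 12). It was thus 2.67 times the wild-type mean with saline (log2 fold change 1.42, SE 0.18, adjusted p = 1.2e-07) and 1.83 times with ABE (0.87, SE 0.18, adjusted p = 0.00011). Between the LMNA G/G groups it was lower with ABE, at 0.685 of the saline-treated mean (-0.56, SE 0.18, adjusted p = 0.016). Il1bos, on the opposite strand of Il1b, averaged 0.0582, 0.0345 and 0.0218 scaled TPM, and how reads shared by the pair were counted is not given in the sources used here.

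Tnf (ENSMUSG00000024401.14, chr17:35199381-35202007) ranged from 0.654 to 1.75 scaled TPM in wild-type (median 1.24), from 0.275 to 0.621 in saline-treated (median 0.391) and from 0.171 to 0.469 in ABE-treated mice (median 0.258). All 12 saline-treated and all 12 ABE-treated mice lay below the lowest wild-type mouse. Tnf was the 1 gene of 7 without overlap in either comparison, where 6.48% of all genes did not overlap between saline-treated and wild-type mice and 8.49% between ABE-treated and wild-type mice. Between ABE-treated and saline-treated mice 0 of 7 genes were free of overlap, against 0.031% of all genes. The means of Tnf were 1.18 ± 0.319, 0.422 ± 0.114 and 0.292 ± 0.0970 (SD, n = 12). Saline-treated bone had 0.356 of the wild-type mean (log2 fold change -1.28, SE 0.14, adjusted p = 4.9e-09) and ABE-treated bone 0.246 (-1.71, SE 0.14, adjusted p = 9.6e-12). With ABE it was also lower than with saline (-0.42, SE 0.14, adjusted p = 0.015), which was further from wild-type. With the osteocyte list as a covariate, whose sums do not overlap between these groups and wild-type, Tnf was at -0.45 with saline (adjusted p = 0.43) and -0.92 with ABE (adjusted p = 0.060), and with TPM as deposited Il1b was at 0.33 in ABE-treated against wild-type mice (adjusted p = 0.26).

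The level of Il1b relative to Tnf in the same library, both per length, was between 0.743 and 2.17 in wild-type mice (mean 1.47 ± 0.455, SD, n = 12). It was between 7.20 and 20.0 in saline-treated mice (11.4 ± 3.45) and between 7.26 and 16.2 in ABE-treated mice (11.4 ± 3.69). Wild-type libraries were apart from both others, and those of the LMNA G/G groups overlapped almost wholly. Since Il1b rose and Tnf alone already lay apart from wild-type, this separation is not an independent result. Both genes are known products of myeloid cells, and within groups and sexes both followed the neutrophil list (r = 0.77 for Tnf and 0.68 for Il1b over 36 libraries). The genes most like Tnf were Mocos, Gpr84, a receptor of myeloid cells, and Plbd1 (r = 0.86 each), and those most like Il1b were Tpd52 (0.83), Gm37347 and Spint2 (0.81 each).

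The sequences before the starts of Il1b and Tnf are shown because the genes moved apart (150 bases, RefSeq, GRCm38.p6, minus strand, 5′ to 3′, capitals for the GC box and the TATA box on either strand). Both windows hold the TATA box. The window of Tnf also holds 1 GC box, and neither holds GGANTTTCC or TTTNGCGC as spelled here. Of the 8 genes with a window, Il6 and Cxcl1 hold GGANTTTCC. Ccl2 had no window.
Il1b, chr2:129371140-129371289: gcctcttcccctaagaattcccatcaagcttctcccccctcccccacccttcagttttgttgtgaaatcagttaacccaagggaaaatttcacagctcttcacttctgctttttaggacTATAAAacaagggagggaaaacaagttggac
Tnf, chr17:35202008-35202157: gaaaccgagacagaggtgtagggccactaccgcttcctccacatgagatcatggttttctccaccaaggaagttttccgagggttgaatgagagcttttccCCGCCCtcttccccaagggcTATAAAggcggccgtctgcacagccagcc

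Neutrophil markers were, like Il1b and Tnf, lower with ABE than with saline. The 15 markers summed to between 807 and 2612 scaled TPM in wild-type, 1075 and 3839 in saline-treated and 367 and 4116 in ABE-treated mice, which overlap. In saline-treated against wild-type bone 3 of 15 were higher and 0 lower (median log2 fold change 0.38), in ABE-treated against wild-type 0 higher and 4 lower (-0.26), and with ABE against saline 0 higher and 12 lower (-0.69). S100a9, an abundant neutrophil protein, was at 558 ± 211, 1052 ± 349 and 659 ± 376 scaled TPM (SD, n = 12), and Cxcr2, the lowest of the list, at 3.92 ± 1.29, 5.13 ± 1.26 and 3.63 ± 1.48. Of 14 monocyte and macrophage markers 1 was higher and 2 lower in saline-treated, and 0 higher and 11 lower in ABE-treated, against wild-type, and 0 higher and 10 lower with ABE against saline. Their sums were 189 to 366, 171 to 404 and 81.3 to 355, led by Lyz2, a lysozyme (179 ± 48.6, 189 ± 52.1 and 148 ± 61.0), with Fcgr1 lowest (0.736 ± 0.197, 0.789 ± 0.208 and 0.495 ± 0.181).

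With both lists as covariates, the differences of Il1b and Tnf from wild-type were still called. Il1b had log2 fold changes of 1.20 with saline and 1.02 with ABE, and Tnf of -1.50 and -1.72. The differences between ABE-treated and saline-treated mice were smaller and not called, at -0.18 for Il1b (adjusted p = 0.65) and -0.22 for Tnf (adjusted p = 0.35), in a fit that called 114 genes over the whole table in place of 9752.

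Receptors of these cytokines moved in part. Of 20 receptors and signal proteins tested (of 21), 9 rose and 3 fell in saline-treated against wild-type bone, 7 rose and 8 fell in ABE-treated against wild-type, and 2 rose and 14 fell with ABE against saline, with medians of 0.13, -0.06 and -0.30. Il1r2, a decoy that binds Il1b without signalling, went from 0.879 scaled TPM in wild-type to 3.06 with saline and 1.98 with ABE (log2 fold change 1.72 and 1.04 against wild-type, and -0.68 with ABE against saline). Il1r1, the signalling receptor, was at 1.23, 1.33 and 1.09, and lower with ABE than in wild-type (-0.18, adjusted p = 0.035) and than with saline (-0.29). Il1rap, its partner, rose in saline-treated bone (0.43, adjusted p = 2.5e-09) and with ABE (0.26, adjusted p = 5.5e-06), and with saline so did the feedback inhibitor Socs3 (1.13, adjusted p = 7.2e-10), which was lower with ABE than with saline (-0.63, adjusted p = 0.00025). Il6ra, which binds Il6, was lower than in wild-type with saline (-0.59, adjusted p = 2.5e-05) and with ABE (-0.84, adjusted p = 3.4e-08). Traf2, an adaptor of the Tnf receptors, was lower in both as well (-0.30, adjusted p = 1.6e-06 and -0.35, adjusted p = 6.9e-08). With ABE against saline, Myd88, the adaptor of Il1 receptors (-0.43, adjusted p = 0.00086), and Tnfrsf1a, the main Tnf receptor (-0.30, adjusted p = 0.0023), fell.

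Of the NF-kappaB subunits and targets, 3 of 18 rose and 10 fell in saline-treated against wild-type bone (median log2 fold change -0.16), and 2 rose and 14 fell in ABE-treated bone (-0.28). Cebpb, a transcription factor of senescence secretion, was among those that rose, from 4.32 ± 0.849 to 10.3 ± 2.32 and 11.2 ± 4.14 scaled TPM (1.22, adjusted p = 2.8e-08 and 1.305, adjusted p = 4.8e-09). The kinase subunit Ikbkb fell (-0.52, adjusted p = 3.7e-09 and -0.55, adjusted p = 7.1e-10), and the inhibitor Nfkbie fell too (-0.58, adjusted p = 0.00011 and -0.79, adjusted p = 5.5e-07). With ABE against saline 0 rose and 6 fell, led by Tnfaip2 (-0.45, adjusted p = 0.00068), Bcl3 (-0.47, adjusted p = 0.0025) and Tnfaip3, a brake on the pathway (-0.29, adjusted p = 0.0069).

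Il6 and Cxcl1 were near the limit of detection in every group. Il6 (ENSMUSG00000025746.11, chr5:30013114-30019981) lay between 0.00739 and 0.0425 scaled TPM over all libraries, on 3 to 30 reads. Median Il6 was 0.0239 for wild-type, 0.0253 with saline and 0.0208 with ABE, and the groups overlapped throughout. Cxcl1 (ENSMUSG00000029380.11, chr5:90891241-90893115) lay between 0.0143 and 0.144, on 6 to 63 reads, with medians of 0.0389, 0.0367 and 0.0495. The 3 highest values of Cxcl1 were in ABE-treated mice. In a fit without the filter neither gene passed in any comparison, where 30.7% (saline-treated against wild-type), 44.3% (ABE-treated against wild-type) and 23.6% (ABE-treated against saline-treated) of 43628 genes did. On reads with limma-voom, the fold of saline-treated against wild-type mice was 0.981 for Il6 (adjusted p = 0.92) and 0.968 for Cxcl1 (adjusted p = 0.90), that of ABE-treated against wild-type 0.803 (adjusted p = 0.19) and 1.33 (adjusted p = 0.21), and that of ABE-treated against saline-treated 0.819 (adjusted p = 0.28) and 1.38 (adjusted p = 0.20).

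Ccl2 (ENSMUSG00000035385.5, chr11:82035571-82037453) ranged from 0.0756 to 0.356 scaled TPM in wild-type (median 0.169), 0.102 to 0.295 in saline-treated (0.232) and 0.101 to 0.455 in ABE-treated mice (0.250). The means of Ccl2 were 0.172 ± 0.0768, 0.204 ± 0.0643 and 0.238 ± 0.113 (SD, n = 12). It did not pass in saline-treated (log2 fold change 0.18, 95% interval -0.09 to 0.45, adjusted p = 0.27) or ABE-treated mice (0.29, 0.02 to 0.56, adjusted p = 0.055) against wild-type, nor between them (0.11, -0.16 to 0.38, adjusted p = 0.52). Saline-treated against wild-type mice passed under 1 of 18 other settings, in the opposite direction, with the osteocyte list as a covariate (-0.98, adjusted p = 0.020). The comparison of ABE-treated with wild-type mice was past the threshold under 9 of 18 other settings, including limma-voom (0.51) and, in the opposite direction, the osteocyte list as a covariate (-0.80, adjusted p = 0.049). It was also called without any of wild-type 604F, 611F, 615M and 619F or ABE-treated F109436, F309468 and F609472 (adjusted p down to 0.017). Its receptor Ccr2, a marker of monocytes, was at 2.56, 1.88 and 1.48 scaled TPM and lower than in wild-type with saline (-0.42) and with ABE (-0.81). The genes most like Ccl2 within groups and sexes were Bmp4 (r = 0.61), Socs3 (0.60) and Relb (0.59). Gm17268, a gene of 66 bp on its opposite strand, had at most 10 reads.

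Cxcl12 (ENSMUSG00000061353.11, chr6:117168535-117181367) was the most abundant of the 9 genes, above 96.1% of the genes tested. It ranged from 27.2 to 64.6 scaled TPM in wild-type (median 35.8), 30.7 to 102 in saline-treated (47.7) and 13.3 to 50.3 in ABE-treated mice (34.3). The lowest value was in F109436 and the highest in the saline-treated male M1WT509424. The means were 37.1 ± 9.96, 50.003 ± 20.4 and 33.2 ± 10.004 (SD, n = 12). Neither saline-treated (log2 fold change 0.38, 95% interval 0.00 to 0.75, adjusted p = 0.086) nor ABE-treated mice (-0.19, -0.56 to 0.18, adjusted p = 0.36) passed against wild-type, and without the wild-type male 615M the first of these did (0.44, adjusted p = 0.042). Under 19 other settings the first was called in 4 and the second in 3, of which 1, with the neutrophil and macrophage lists, was in the opposite direction (0.50, adjusted p = 0.0099). With ABE it was lower than with saline, at 0.665 of its mean (-0.57, SE 0.18, adjusted p = 0.013).

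Cxcl12 followed the stromal cells that are named for it. Its genes of highest correlation within groups and sexes were Esm1 (r = 0.96), Lepr, the leptin receptor that marks marrow stromal cells (0.93), and Pappa, a protease that frees insulin-like growth factors (0.91). The CXCL12-abundant stromal list, which leaves out Cxcl12 itself, had r = 0.95. Of its 8 genes 3 rose and 0 fell in saline-treated against wild-type bone, 1 rose and 1 fell in ABE-treated against wild-type, and 0 rose and 2 fell with ABE against saline. They summed to 19.1 to 37.9, 21.6 to 55.6 and 13.9 to 34.4 scaled TPM, from Adipoq (8.71 ± 3.17, 11.7 ± 5.29 and 6.57 ± 3.36) to Il7 (0.184 ± 0.0477, 0.210 ± 0.0739 and 0.164 ± 0.0726). Cxcr4, the signalling receptor of Cxcl12, was at 14.6 scaled TPM with saline and 10.8 with ABE, and lower with ABE than in wild-type (-0.45, adjusted p = 0.046) and than with saline (-0.51). Ackr3, the scavenger receptor that removes it, rose from 1.58 ± 0.733 to 7.07 ± 1.73 with saline (log2 fold change 2.16, adjusted p = 5.3e-11) and 6.55 ± 1.47 with ABE (2.07, adjusted p = 9.4e-11). Ackr3 is itself among the osteocyte markers above.

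Gdf15 (ENSMUSG00000038508.7, chr8:70629393-70632456) ranged from 0.181 to 0.679 scaled TPM in wild-type (median 0.307), 0.180 to 0.903 in saline-treated (0.4997) and 0.0987 to 0.719 in ABE-treated mice (0.343). The means were 0.336 ± 0.139, 0.469 ± 0.219 and 0.339 ± 0.194 (SD, n = 12). Against wild-type it did not pass with saline (log2 fold change 0.34, adjusted p = 0.078) or ABE (-0.07, adjusted p = 0.72). The first was called under 4 of 18 other settings, among them males only (0.55, adjusted p = 0.029), and the second under 1 of 18, in the opposite direction, with the neutrophil and macrophage lists as covariates (0.48, adjusted p = 0.017). With ABE it was lower than with saline (-0.41, SE 0.16, adjusted p = 0.039), but this was called under only 7 of 18 other settings. The adjusted p there went up to 0.97, and with limma-voom on genes with at least 10 reads it was 0.059. The call was also lost in 10 of 36 fits that left out 1 library, with an adjusted p of up to 0.081. These left out ABE-treated F109436, F309468, F509471, F609472, M309457 or M509459, or saline-treated F209536, F409439, M1WT509424 or M209511. Leaving out any of wild-type 606M and 611F or saline-treated F109420 and F309418 brought the difference between saline-treated and wild-type mice past the threshold (adjusted p down to 0.037). Its partners in pattern were Fcna (r = 0.78), Cd5l (0.77) and Abcc3 (0.76), of which Fcna and Cd5l are macrophage genes. Gfral, its receptor in the brainstem, averaged 0.000299 scaled TPM in wild-type and 0.000328 with saline, and was listed at 0 in all libraries with ABE.

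Between ABE-treated and saline-treated mice Cxcl12 and Gdf15 fell, as did most neutrophil, macrophage, erythroid and T and NK cell markers. Of 10 B cell markers 0 were lower, and most muscle markers rose. Whether these changes are linked was not tested. Skeletal muscle markers summed to 191 to 2840 scaled TPM in wild-type, 301 to 7427 in saline-treated and 977 to 11963 in ABE-treated mice, and 9, 12 and 10 of 12 were higher in saline-treated against wild-type, ABE-treated against wild-type and ABE-treated against saline-treated bone. Acta1, the actin of muscle fibres, was at 311 ± 211, 826 ± 576 and 1743 ± 897, and Myh2, the lowest of the list, at 17.2 ± 15.9, 25.3 ± 13.8 and 95.5 ± 70.2. With the neutrophil and macrophage lists as covariates Cxcl12 was at 0.09 and Gdf15 at 0.02 on the log2 scale between ABE-treated and saline-treated mice, and with the muscle list 0 of 7 genes were called. In the females alone 0, and in the males alone 1 (Tnf, -0.52), of the 7 genes were called in this comparison. Of all 22546 genes, the fit of females called 3053 higher and 2558 lower, and that of males 2220 and 2077. The fit with the muscle list called 1429 higher and 680 lower, so few calls among 7 genes say little by themselves. Without F109436, the library with the lowest size factor (0.219), Il1b, Tnf and Cxcl12 were still called.

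**Figure D4:**
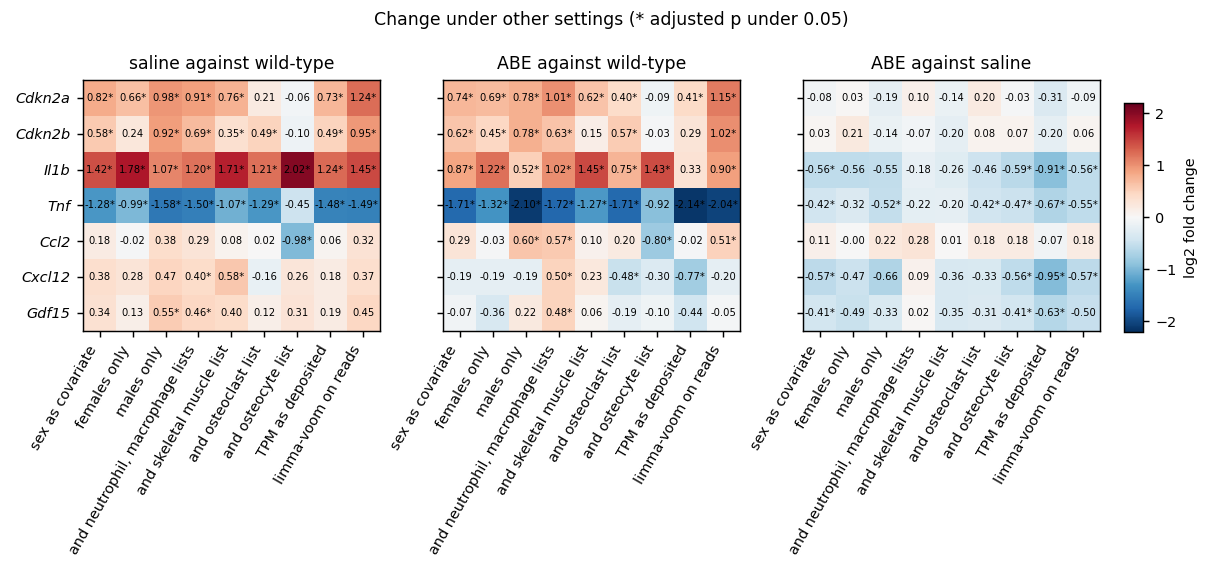
Log2 fold change of 7 genes (rows) under the main fit and 8 other settings (columns) in each comparison, coloured from -2.2 (blue) to 2.2 (red), with an asterisk for an adjusted p under 0.05. Tnf stays below 0 and Il1b above 0 against wild-type under each setting drawn, whereas between ABE-treated and saline-treated mice no gene keeps its asterisk with neutrophil and macrophage lists or the muscle list as covariates. Of all genes, the fit with neutrophil and macrophage lists called 90 higher and 24 lower there, and that with the muscle list 1429 and 680.

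Other secreted factors of senescent cells gave a mixed picture beside these 9 genes. Of 35 tested (of 43), 15 rose and 4 fell in saline-treated against wild-type bone, 12 rose and 6 fell in ABE-treated against wild-type, and 2 rose and 13 fell with ABE against saline, with median log2 fold changes of 0.28, -0.01 and -0.26. Spp1, osteopontin, rose from 57.7 ± 18.5 scaled TPM to 258 ± 89.7 with saline (2.13, adjusted p = 1.3e-10) and was lower with ABE, at 140 ± 45.5 (-0.86 against saline, adjusted p = 0.0013). Cxcl2, a neutrophil chemokine closely related to Cxcl1, rose from 0.0295 ± 0.0126 to 0.227 ± 0.0849 with saline (1.31, adjusted p = 8.6e-09) and 0.216 ± 0.114 with ABE (1.21, adjusted p = 1.8e-08). Its wild-type mean is under the filter of 0.1, so it was tested only because the LMNA G/G groups are high. Its adjusted p is therefore no independent support. Cxcl5, which binds the same receptor Cxcr2, fell from 0.591 ± 0.0803 to 0.155 ± 0.0677 (-1.48, adjusted p = 5.4e-10) and 0.0792 ± 0.0574 (-2.00, adjusted p = 7.2e-13). The ABE mean of Cxcl5 is under the filter of 0.1, while its wild-type and saline means are over it. Il1a, the sister cytokine of Il1b, fell where Il1b rose, from 0.484 ± 0.107 to 0.237 ± 0.0995 and 0.146 ± 0.0853 scaled TPM, at -0.83 with saline (adjusted p = 4.8e-05) and -1.31 with ABE (adjusted p = 1.7e-08) on the log2 scale. Vegfa (0.76, adjusted p = 0.00067) and Igfbp6 (1.62, adjusted p = 0.0013) were the 2 that rose with ABE against saline.

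Females and males were then set side by side. Gdf15 averaged 0.263, 0.308 and 0.194 scaled TPM in wild-type, saline and ABE females and 0.408, 0.631 and 0.484 in the males of these groups. Ccl2 was between 0.102 and 0.235 in saline-treated females and between 0.229 and 0.295 in saline-treated males. Cdkn2b went from 0.145 ± 0.0278 (SD over the 6 wild-type females) to 0.191 ± 0.0429 in saline-treated females, and from 0.114 ± 0.0508 to 0.300 ± 0.0645 in males. The difference of this response between the sexes was 0.67 on the log2 scale (SE 0.19, unadjusted p = 0.000989), with an adjusted p of 0.056 from limma over all genes. In females alone the rise of Cdkn2b with saline was not called (0.24, adjusted p = 0.16). For Tnf, the difference between the sexes in the response of ABE mice against wild-type was -0.78 (SE 0.25, adjusted p = 0.070). The interaction thus called 0 of 7 genes in each comparison, where it called 1.18% (saline-treated against wild-type), 3.11% (ABE-treated against wild-type) and 0.0621% (ABE-treated against saline-treated) of all genes.

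The order of the genes by level, all per length, differed between the groups. In wild-type mice the means ran from Cxcl12 over Il1b, Tnf, Gdf15, Ccl2, Cdkn2a, Cdkn2b and Cxcl1 to Il6. Cxcl12 was 21.4 times Il1b there, with no overlap, and Il1b was above Tnf in 10 of 12 libraries. Cdkn2a and Cdkn2b did not differ beyond their spread in wild-type, since Cdkn2a was the higher in 7 of 12 libraries, and in saline-treated mice it was so in 10 of 12. In saline-treated mice Gdf15 (1.11 times Tnf on average, higher in 7 of 12) came before Tnf, and both inhibitors came before Ccl2, with Cdkn2b above Ccl2 in 10 of 12 libraries, and in ABE-treated mice Gdf15, Cdkn2a, Tnf, Cdkn2b and Ccl2 followed each other with overlapping ranges, each above the next in 6 or 7 of 12 libraries. Cxcl1 and Il6 were last in all groups. As a position among the 22546 genes tested, Il1b was above 74.1%, Tnf 34.5%, Gdf15 23.9%, Cdkn2a 16.2%, Cdkn2b 12.8% and Ccl2 12.5%.

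The tissue held the cell types named for it and others. Osteoblast markers summed to 525 to 3118 scaled TPM over all mice, with 4, 4 and 1 of 9 higher and 0, 0 and 1 lower in saline-treated against wild-type, ABE-treated against wild-type and ABE-treated against saline-treated bone. In the same order, B cell markers were lower for 9, 8 and 0 of 10, T and NK cell markers for 3, 9 and 6 of 9, cartilage markers lower for 8, 7 and 0 of 9 and higher for 5 in the last, endothelial markers higher for 5, 7 and 2 of 9 and lower for 1, 1 and 0, and erythroid markers lower for 0, 7 and 7 of 8. No marker was at 0 in all libraries of a group.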

How the data were processed

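Poly(A) RNA of 36 tibiae was sequenced as strand-specific pairs. The authors aligned reads to GRCm38 with STAR (version 2.73a in the submitters' processing notes), counted GENCODE genes with QoRTs and deposited TPM for 56246 genes. How TPM were computed is not given in the sources used here. The table also holds the authors' deposited fraction of G and C bases per gene, not used here. All 36 columns were mapped by name, and 0 pairs of libraries were identical.

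TPM were whole reads (100% within 0.01) times a constant over gene length less 218 bp, so reads were recovered for depth (median 78234452.5 per library) and limma-voom. Short genes (219 bp or less) took 84.7% to 96.6% of all TPM, so TPM were divided by median ratio size factors (0.219 to 1.57) over 23632 genes with reads in every library. log2(scaled TPM + 0.1) was fitted with limma 3.58.1 (R 4.3.3, trend, sex as covariate, all libraries in 1 fit), with sex cells for the interaction. P-values set a group difference against the spread between mice that is left after group and sex. Against wild-type they cannot separate genotype from injection or batch. The fit was run on simulated data with independent noise for each gene, so shifts shared between genes, such as cell content, were not covered. Lists were counted, not tested.

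Named were all 9 genes, the 3 most correlated genes of each tested one, up to 3 called genes of lowest adjusted p of each list and comparison, receptors, and the highest and lowest marker of cell lists. Members and lists were chosen with earlier results of these data known. Alternatives were the normalization, pseudocount, filter, weights, covariates, limma-voom, sexes apart and each library left out. Coordinates are from GENCODE vM21. Python 3.11.15, numpy 2.4.6, pandas 2.3.3 and matplotlib 3.10.9 were used. The transgene, its editing, histology and other assays were not analysed here.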

Additional observations from a re-analysis of the deposited data

How the results depend on the processing

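Of 131 values per comparison (the 9 genes under the alternatives that gave a value, fits without each library in turn not counted), 115 kept direction and side of the threshold in saline-treated against wild-type, 107 in ABE-treated against wild-type and 98 in ABE-treated against saline-treated mice. Called genes numbered 2 against wild-type with saline and 2 with ABE under a filter at 0.5 scaled TPM, which leaves 3 of the genes, and 2 and 2 with the osteocyte list; it was 7 in ABE-treated against wild-type with the neutrophil and macrophage lists. Between ABE-treated and saline-treated mice it was 0 with those lists, 0 with the muscle list, 1 with the osteoclast list, 0 in females and 1 in males, and the interaction with sex called 1 gene, Tnf, for ABE against wild-type at a pseudocount of 0.5. For ABE against saline, the fit with the muscle list called 1429 of all genes higher and 680 lower. With the osteoclast list these were 3267 and 3153, in females 3053 and 2558, and in males 2220 and 2077. The filter at 0.5 scaled TPM left 15902 genes. Of these, 4488 were higher and 3820 lower with saline against wild-type, and 5555 and 5604 with ABE. The osteocyte list gave 1351 and 1641 with saline and 1355 and 1357 with ABE, of 22546. For ABE against wild-type, the neutrophil and macrophage lists gave 6529 and 6286. The interaction at a pseudocount of 0.5 called 700 of 22546 genes there. The osteoclast and osteocyte covariates and limma-voom on genes with at least 10 reads were chosen after seeing the data.

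Directions reversed as follows, on the log2 scale; the cause was not tested. With the osteocyte list, Cdkn2a was at -0.063 and -0.093, Cdkn2b at -0.10 and -0.030 and Ccl2 at -0.98 and -0.80 in saline-treated and ABE-treated against wild-type mice. Of these values, only those of Ccl2 were called. With the osteoclast list, Cxcl12 was at -0.16 in saline-treated against wild-type and Cdkn2a at 0.20 in ABE-treated against saline-treated mice. With the neutrophil and macrophage lists, Cxcl12 was at 0.50 and Gdf15 at 0.48 in ABE-treated against wild-type mice, and Cdkn2a at 0.10, Cdkn2b at -0.066, Cxcl12 at 0.092 and Gdf15 at 0.022 in ABE-treated against saline-treated mice. With the muscle list, Cxcl12 was at 0.23 and Gdf15 at 0.057 in ABE-treated against wild-type and Cdkn2b at -0.20 in ABE-treated against saline-treated mice. In females Ccl2 was at -0.022, -0.026 and -0.0042 in the 3 comparisons and Cdkn2a at 0.032 in the last; in males Gdf15 was at 0.22 in ABE-treated against wild-type and Cdkn2b at -0.14 in the last. With TPM as deposited Ccl2 was at -0.019 in ABE-treated against wild-type and -0.074 in ABE-treated against saline-treated mice, and Cdkn2b at -0.20 in the latter. Without 1 library, Cdkn2b ranged from -0.015 to 0.088 there.

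TPM as deposited moved the median of all genes to -0.16, -0.49 and -0.31 in the 3 comparisons, with 1458, 2116 and 753 genes called higher and 4940, 12587 and 8102 lower, and TPM rescaled without short genes called 2524 higher and 9047 lower in saline-treated against wild-type and 4890 and 10411 for ABE against wild-type. With the neutrophil and macrophage lists 114 genes were called for ABE against saline, and without them 9752. No paired analysis was possible because, although the study describes littermates, the replicates are mouse numbers that the groups do not share. Il6 and Cxcl1 rest on 3 to 63 reads.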
